A study of Mus musculus with 10 samples.

Results

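A set of 46 genes that drive mitosis and build or use the mitotic spindle was followed in mouse lung after irradiation. The members are named by symbol, and all 46 were found among the 45786 genes of the deposited tables, where gene identifiers carry their GENCODE M21 symbols. Each passed the filter on low counts and was 1 of the 15625 genes tested. Only 2, Cdc25c and Sapcd2, had a mean under 50 counts per pool. The rule itself used no measured value, but the members were chosen with earlier results of these data known.

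The study took whole lung cell suspensions from inbred C57BL/6J mice and sequenced their RNA. Irradiated mice had received 12.5 Gy of γ-radiation to the whole thorax, and controls of matched age 0 Gy. Suspensions were made 24 hours and 1, 4, 12 and 32 weeks later. Each library pooled the RNA of 3 mice. Every time had 1 pool per treatment, so there were 5 irradiated and 5 control pools and no replicate pool at any time. The labels give neither the sex nor the age of the mice, nor what the thorax held besides lung at dissection.

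During mitosis, cyclin B with the kinase Cdk1 drives the cell into division, chromosomes condense, and kinesin motors and microtubule-binding proteins build the bipolar spindle. Kinetochores tie the chromosomes to spindle fibres, and a checkpoint holds the anaphase-promoting complex in check until every chromosome is attached, after which cytokinesis parts the daughter cells. Transcripts of these proteins are made mainly in late S phase, G2 and mitosis, and fully differentiated lung cells hold few of them. After DNA damage, p53 induces the Cdk inhibitor p21 (Cdkn1a), and the DREAM complex represses many mitotic genes through a promoter element called the cell cycle genes homology region, CHR.

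The members' promoters often held this element, which the choice of members did not use. RefSeq promoter windows of build GRCm38.p6, from 250 bases before to 50 after the gene start, were matched for 39 of the 46 members. The CHR letters TTTGAA, searched on both strands (TTCAAA on the other), stood in 29 of these 39 windows (74.4%). They stood in 18.1% of all 27025 promoters and in 12.5% of the 11235 promoters of tested genes. Counted only from 50 bases before to 50 after the start, the CHR was in 69.2% of the members' windows and 2.99% of those of tested genes. The CCAAT box (CCAAT or, on the other strand, ATTGG), a binding site of the factor NF-Y, was in 28 of 39 members (71.8%) and in 38.3% of the promoters of tested genes. At least 2 boxes stood in 53.8% and 14.3%. The variant TTTAAA, which shares no match with the CHR letters, was in 23.1% of members and 9.26% of promoters of tested genes. These are matches of letters in a window, with no measurement of binding.

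Below are 8 of these promoters, picked as examples with the expression values known, because each has a CCAAT box followed by a CHR close to the start. In Cdc20 a further CCAAT box follows the CHR, and in Cdk1 a further CHR lies between the CCAAT boxes. Each sequence runs 5′ to 3′ along the gene from 120 bases before the start, and capitals mark the CHR and CCAAT box matches.
Ccnb2 promoter, chr9:70421545-70421674, minus strand: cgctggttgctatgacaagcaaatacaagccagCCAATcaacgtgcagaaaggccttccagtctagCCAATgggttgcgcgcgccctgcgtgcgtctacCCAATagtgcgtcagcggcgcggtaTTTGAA
Cdk1 promoter, chr10:69352913-69353032, minus strand: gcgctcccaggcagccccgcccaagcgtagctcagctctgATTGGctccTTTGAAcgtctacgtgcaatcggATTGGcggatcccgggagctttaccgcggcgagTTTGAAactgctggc
Cdc20 promoter, chr4:118437344-118437463, minus strand: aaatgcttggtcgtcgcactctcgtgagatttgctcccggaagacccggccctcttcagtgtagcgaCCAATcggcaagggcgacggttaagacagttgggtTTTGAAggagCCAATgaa
Kif11 promoter, chr19:37376262-37376381, plus strand: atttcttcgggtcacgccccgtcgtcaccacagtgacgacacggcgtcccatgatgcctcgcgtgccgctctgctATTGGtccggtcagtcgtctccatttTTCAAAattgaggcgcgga
Top2a promoter, chr11:99024190-99024309, minus strand: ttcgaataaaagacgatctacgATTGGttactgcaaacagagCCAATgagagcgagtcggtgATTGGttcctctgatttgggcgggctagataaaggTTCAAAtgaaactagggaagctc
Prc1 promoter, chr7:80294331-80294451, plus strand: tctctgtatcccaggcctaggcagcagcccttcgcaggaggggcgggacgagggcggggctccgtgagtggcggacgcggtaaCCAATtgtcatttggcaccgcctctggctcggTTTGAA
Racgap1 promoter, chr15:99651646-99651776, minus strand: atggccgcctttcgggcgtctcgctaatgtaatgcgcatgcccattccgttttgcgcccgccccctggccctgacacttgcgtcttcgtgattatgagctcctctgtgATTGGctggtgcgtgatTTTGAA
Ube2c promoter, chr2:164769809-164769928, plus strand: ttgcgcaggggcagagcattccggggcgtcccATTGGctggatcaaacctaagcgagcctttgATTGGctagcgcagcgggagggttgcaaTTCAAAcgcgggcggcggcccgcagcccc
The first base of the CHR lay 5 bases into the transcript in Ccnb2 and 6 in Racgap1. It lay 5 bases before the start in Prc1, 18 in Cdc20, 19 in Kif11, 23 in Top2a and 29 in Ube2c, while Cdk1 had a CHR at 15 and another at 71 bases before it. Of the 8 genes, 7 fell at 24 hours in the tests given next, and Ube2c did not pass. As picked examples, the 8 genes cannot show whether a CHR goes with a fall. Among all members with a matched promoter, a CHR stood in 14 of the 20 that fell and in 15 of the 19 others. These shares were compared after the values were seen and were not tested.

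All 46 members were detected in every unirradiated pool. On the length-corrected FPKM scale (fragments scaled by transcript length and library total), Birc5, which encodes the passenger protein survivin, was highest at 21.7 ± 3.70, followed by Cdk1 at 20.2 ± 4.24 and Ube2c, the ubiquitin-conjugating enzyme of the anaphase-promoting complex, at 16.3 ± 3.63 (SD, n = 5 each). The intervals of these 3 overlap, and Racgap1 was next at 13.0 ± 0.69. At the lower end stood Aspm at 0.558 ± 0.112, below Cdc25c at 0.612 ± 0.280, and the median member was at 3.57.

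The control pools set the error of the test at each time, while tests over more than 1 time drew theirs from the pools of both treatments. Summed over the 46 genes, the controls held 776, 820, 893, 749 and 1012 CPM at 24 hours and 1, 4, 12 and 32 weeks, where CPM is a gene's count relative to the scaled library total. Their mean was 850 ± 106 CPM (SD, n = 5). The coefficient of variation over the 5 controls ran from 6.64% for Tpx2, the spindle assembly factor, to 78.8% for Ttk, the checkpoint kinase Mps1, with a median of 25.3%. The 32-week control was the highest control for 20 members and the 12-week control, the shallowest library, the lowest for 18. No member passed a test of change with log2 days among control pools (edgeR quasi-likelihood test with Benjamini-Hochberg adjustment over all genes), where 0% of all genes tested did. That test was fitted to the pools of both treatments, with a separate level and slope for each, so the irradiated pools also entered its error. By unadjusted p under 0.05 there was 1 higher, Foxm1 (adjusted p = 0.998), against 2.71% of all genes, and DESeq2 called none. With each control pool set against the other 4, the medians over the members lay between −0.30 and 0.26 on the log2 scale.

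The members' sum in irradiated pools was 206, 464, 1082, 992 and 631 CPM in the same order of times. It lay below all 5 controls at 24 hours, 1 week and 32 weeks, above all 5 at 4 weeks, and within their range at 12 weeks. In bulk RNA, fewer dividing cells and less RNA per dividing cell cannot be told apart.

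**Figure D1:**
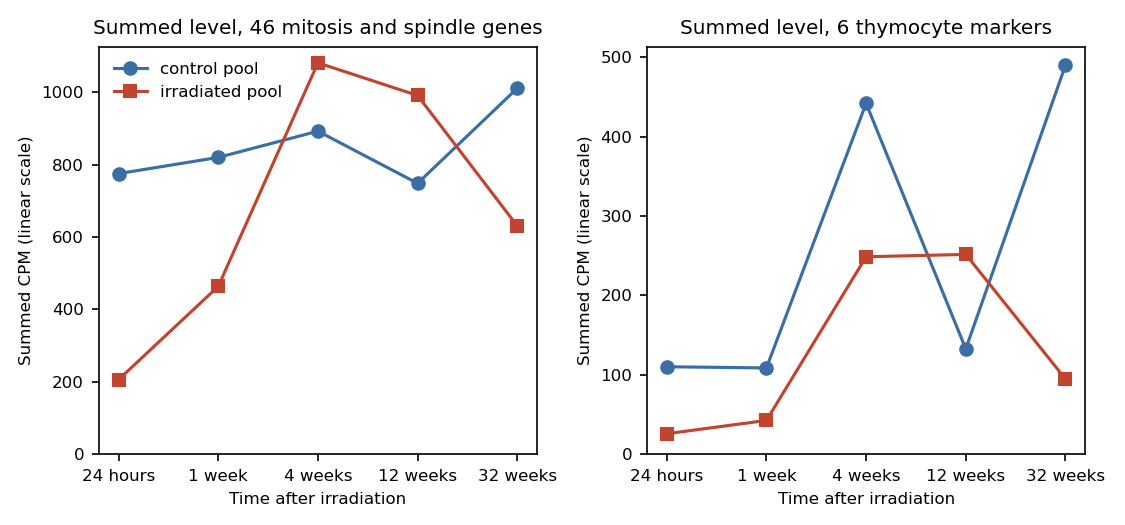
Summed CPM (linear scale from 0) of the 46 mitosis and spindle genes on the left and of 6 thymocyte markers on the right, by time, for control pools (blue circles) and irradiated pools (red squares); each point is 1 pool, so there are no error bars. The irradiated pool of 24 hours has the lowest sum of the 46 genes, 206 CPM against 749 to 1012 in controls, and the thymocyte markers vary from 109 to 490 CPM between control pools.

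At 24 hours the whole set lay lower. All 46 genes were below their same-time control, with a median log2 difference of −2.05, which is 24.2% of the control level, while the median over all genes tested was −0.004 and 50.4% of them were lower. Of the 46, 44 lay below all 5 controls, against 21.2% of all genes tested, the exceptions being Ttk and Anln. In the edgeR quasi-likelihood test of the irradiated pool against the 5 controls, 25 of 46 fell and 0 rose, where 0.454% of all genes tested fell and 0.602% rose. With unadjusted p under 0.05 there were 42 lower members against 6.27% of all genes. The spread in that test is the one among control pools of all 5 times, and the single irradiated pool is taken to vary as they do. DESeq2 called 38 members lower, where it called 2.3% of all genes it tested. With limma on log2(FPKM + 1) 14 were called, against 0.243% of all genes.

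**Figure D2:**
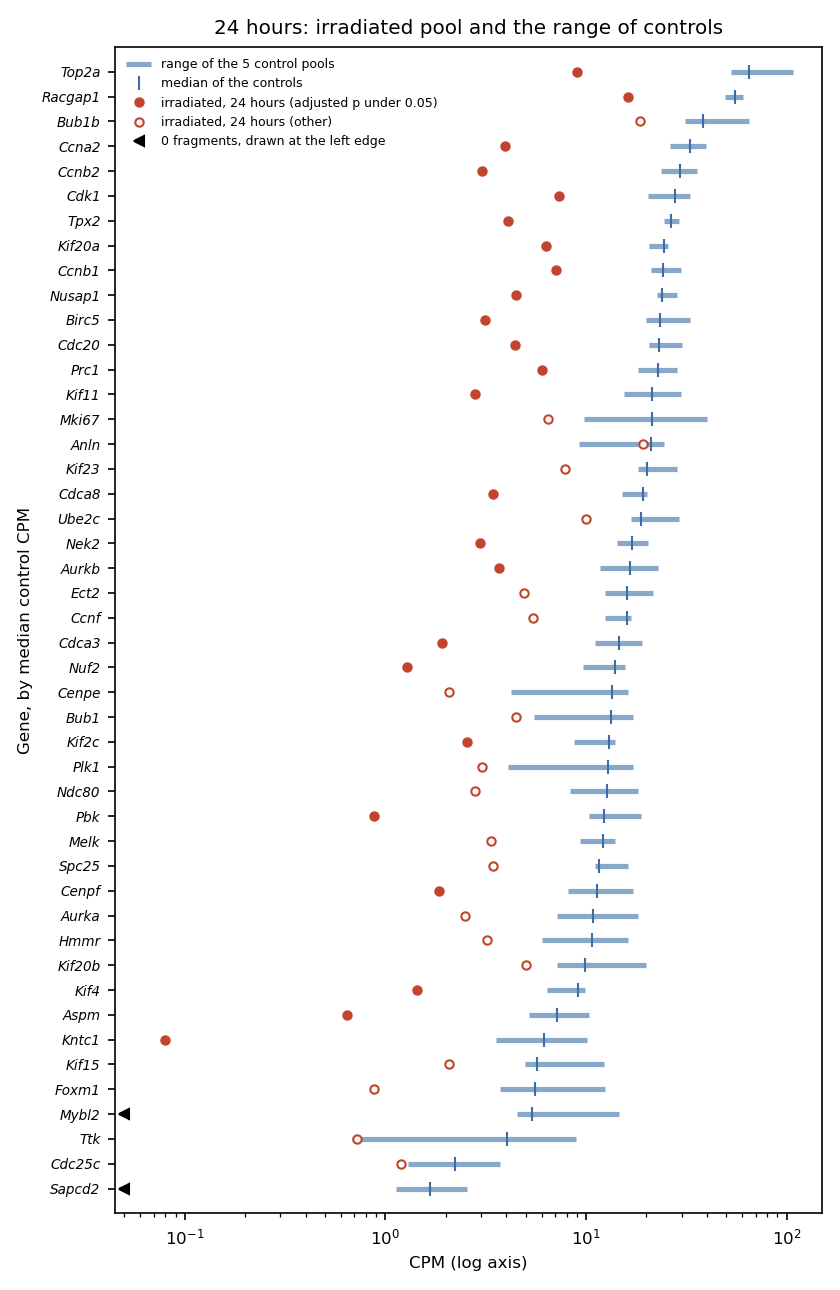
CPM of each of the 46 genes on a log axis, ordered by median control level: bars span the 5 control pools, ticks mark their median, and circles mark the irradiated pool of 24 hours, filled where the edgeR adjusted p is under 0.05 (25 genes). Triangles at the left edge stand for 0 fragments (Mybl2 and Sapcd2), and the circles of Anln and Ttk lie within the control bar.

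Among the cyclins and their kinase, 4 of 6 fell at 24 hours. Ccnb2, cyclin B2, held 29.6, 35.7, 29.3, 23.8 and 28.2 CPM in the controls in time order and 3.04 in the irradiated pool of 24 hours. All 5 controls were several times higher, and the log2 change against them was −3.26 ± 0.35 (SE; edgeR adjusted p = 0.00265). Ccna2, cyclin A2 of S phase and G2, was at 35.5, 26.3, 33.1, 32.1 and 39.5 CPM in controls and 3.92 after irradiation (log2 −3.08 ± 0.33, edgeR adjusted p = 0.00265). Cdk1 (ENSMUSG00000019942, GRCm38 chromosome 10, 69335146 to 69352938, minus strand) was at 29.9, 27.4, 32.9, 20.5 and 27.9 CPM against 7.37 (log2 −1.91 ± 0.33, adjusted p = 0.0278). For each of the 3, the single irradiated pool of 24 hours lay below all 5 controls, as it did for 21.2% of all genes tested. Ccnb1 also fell (log2 −1.80 ± 0.31, edgeR adjusted p = 0.0297). The other two were Ccnf, a cyclin that serves as a ubiquitin ligase subunit, at 5.45 CPM against 15.5 ± 1.75 in controls (adjusted p = 0.0745), and Cdc25c, the phosphatase that activates Cdk1, at 1.20 against 2.24 ± 0.965 CPM (adjusted p = 0.719).

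Both transcription factors that switch on mitotic genes were low. Mybl2 (B-Myb; ENSMUSG00000017861, GRCm38 chromosome 2, 163054687 to 163084688, plus strand) works with the MuvB core of DREAM. It gave 0 fragments in the irradiated pool of 24 hours and 81, 72, 108, 41 and 275 in the 5 controls. With a floor of 3 fragments in that library it was at least 24.2-fold lower than its same-time control (edgeR adjusted p = 0.0303). Foxm1, the forkhead activator of G2 genes, was at 0.881 CPM, below the lowest control of 3.71, but its controls ran up to 12.4 and it did not pass (adjusted p = 0.154). Such floors and intervals cover counting error only, since the labels name no molecular identifiers.

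Of the 5 mitotic kinases, Nek2, a centrosome kinase, and Pbk fell. Pbk, the PDZ-binding kinase, was at 11.6, 12.3, 18.8, 10.4 and 12.3 CPM in controls and 0.881 in the irradiated pool (log2 −3.88 ± 0.54, edgeR adjusted p = 0.0103). Nek2 went to 2.96 from 17.2 ± 2.71 CPM (log2 −2.53 ± 0.38, edgeR adjusted p = 0.0164). Plk1 at 3.04 CPM, Aurka at 2.48 and Melk at 3.36 were each below their lowest control, of 4.07, 7.13 and 9.32 CPM, without passing (edgeR adjusted p = 0.285, 0.110 and 0.0695). Their fitted log2 differences, −1.95 ± 0.68, −2.33 ± 0.57 and −1.82 ± 0.40 (SE), were of a size with those of genes that passed. The 3 members from the chromosomal passenger complex, which corrects faulty attachments, fell. They were Aurkb, its kinase (log2 −2.22 ± 0.43, edgeR adjusted p = 0.0430), Cdca8, borealin (−2.38 ± 0.36, 0.0164), and Birc5. Survivin transcripts of Birc5 were at 23.4, 23.0, 32.9, 19.9 and 26.3 CPM in controls and 3.12 after irradiation (log2 −3.003 ± 0.39, edgeR adjusted p = 0.00706). Incenp, the scaffold of that complex and no member here, was at 15.9 against 25.9 ± 7.65 CPM and did not pass (edgeR adjusted p = 0.537).

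In the checkpoint and kinetochore group 3 of 9 fell. Kntc1, a subunit of the complex that brings dynein and Mad proteins to kinetochores, gave 118, 56, 73, 53 and 190 fragments in controls and 1 in the irradiated pool of 24 hours. The ratio to the same-time control was 106-fold with an exact 95% counting interval of 18.6 to 4217 (edgeR adjusted p = 0.0251). Nuf2, which grips microtubules as part of the Ndc80 complex, was at 15.7, 15.0, 13.52, 9.68 and 14.0 CPM against 1.28 (log2 −3.39 ± 0.47, edgeR adjusted p = 0.00986). Its partners in that complex were also below every control without passing: Ndc80 was at 2.80 against 13.3 ± 3.56 CPM (adjusted p = 0.0691) and Spc25 at 3.44 against 12.7 ± 2.13 (0.0571). Cenpf, a large kinetochore protein, fell (log2 −2.71 ± 0.52, edgeR adjusted p = 0.0409). The checkpoint kinase genes Bub1 and Ttk, the pseudokinase gene Bub1b and the kinetochore kinesin gene Cenpe did not pass, with edgeR adjusted p from 0.185 (Cenpe) to 0.485 (Ttk).

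Anaphase genes also split. Cdc20, the activator of the anaphase-promoting complex, held 22.7, 23.1, 28.1, 20.7 and 30.2 CPM in controls and 4.41 after irradiation (log2 −2.50 ± 0.35, edgeR adjusted p = 0.0102), and Cdca3 fell by 2.89 ± 0.46 (adjusted p = 0.0190). Ube2c was at 10.01 CPM, 60.0% of its same-time control, and did not pass (edgeR adjusted p = 0.272). Of the 7 kinesin motors, Kif11, Kif20a, Kif2c and Kif4 fell. Kif11 (Eg5), which slides spindle poles apart, was at 17.8, 15.4, 23.4, 21.4 and 29.6 CPM in controls and 2.80 after irradiation (log2 −2.94 ± 0.46, edgeR adjusted p = 0.0171). Kif23, a motor of the central spindle, was at 7.85 against 21.6 ± 4.29 CPM (adjusted p = 0.0986). Kif15 and Kif20b did not pass either (0.276 and 0.512).

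Spindle assembly factors gave some of the most precise values. Tpx2 (ENSMUSG00000027469, GRCm38 chromosome 2, 152847964 to 152895321, plus strand), which activates Aurora A on the spindle, was at 24.4, 26.6, 25.9, 28.9 and 27.9 CPM in controls and 4.09 in the irradiated pool of 24 hours (log2 −2.71 ± 0.29, edgeR adjusted p = 0.00265). Its controls hardly differed from each other, and none came near the irradiated value. Nusap1 (log2 −2.46 ± 0.31, adjusted p = 0.00534), Aspm of the spindle poles (−3.50 ± 0.62, 0.0314) and Prc1, the bundler of the central spindle (−1.93 ± 0.33, 0.0281), fell as well in edgeR. Sapcd2 had 0 fragments against 38 in the same-time control, at least 11.4-fold lower, at an edgeR adjusted p of 0.0506, just outside the threshold. Hmmr, a microtubule-binding protein, was at 3.204 against 11.0 ± 3.61 CPM (adjusted p = 0.203).

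Of the 3 cytokinesis genes 1 fell. Racgap1, of the centralspindlin complex, went from 49.4, 55.2, 55.0, 60.4 and 55.4 CPM in controls to 16.1 (log2 −1.77 ± 0.22, edgeR adjusted p = 0.00534). Ect2, the exchange factor it recruits, was at 4.89 against 16.8 ± 4.41 CPM, a log2 difference of −1.78 ± 0.43 that did not pass (edgeR adjusted p = 0.109). Anln, the actin-binding scaffold anillin, was at 22.8, 24.4, 20.98, 17.1 and 9.27 CPM in controls and 19.3 after irradiation. This value lies inside the control range, and its fitted log2 change was 0.03 ± 0.43 (edgeR adjusted p = 0.992). Top2a (ENSMUSG00000020914, GRCm38 chromosome 11, 98992943 to 99024189, minus strand), the topoisomerase that untangles chromosomes, fell from 52.9, 59.6, 76.9, 65.0 and 107 CPM to 9.05 (log2 −2.996 ± 0.42, edgeR adjusted p = 0.0104). Mki67, which encodes the proliferation antigen Ki-67, was at 6.49 CPM against controls from 9.76 to 40.2, and did not pass (adjusted p = 0.326).

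These calls differed in how far they rested on single control pools. Of the 25, 13 were kept without any 1 control, and 10 also under every other alternative run: Ccna2, Ccnb2, Pbk, Birc5, Nuf2, Cdc20, Tpx2, Nusap1, Racgap1 and Top2a. Without the 1-week control only 14 were called, against 0.154% of all genes tested, with Cdk1, Mybl2, Cdca8, Cdca3 and Kif20a among those lost. Without the 32-week control 19 of the 25 were called, against 0.288% of all genes tested. Aurkb, Kif2c, Kif4 and Cenpf each lost the call when any 1 of 4 controls was left out, and Kntc1 lost it without the 12-week control. Ccnb1 and Aspm were not called without the 1-week or the 32-week control. Without the 4-week and 32-week controls together, which held the highest thymocyte marker sums and whose removal leaves 3 controls, 17 members were called lower, against 0.358% of all genes tested. Fragments of 6 members can include those of a gene on the opposite strand that overlaps them and has over 0.1 of their level, as NexteraXT libraries carry no strand: Ccna2 with Exosc9, Cdc20 with Elovl1, Kif20a with Cdc23, Kif4 with Pdzd11, Cdca8 with 9930104L06Rik and Prc1 with Rccd1.

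One week after irradiation most members were still below their control, but none passed. The median log2 difference was −0.87 (54.6% of the control level), with 43 of 46 genes lower (47.4% of all genes), and 34 lay below all 5 controls, against 18.8% of all genes tested. The edgeR test called 0 members in either direction, where 0% of all genes tested fell and 0.0192% rose, and 24 were lower at an unadjusted p under 0.05 against 4.45% of all genes. DESeq2 did call members lower at this time, but its share of all genes is not given here. On simulated data, the same kind of edgeR test at 24 hours recovered 8% of 2-fold falls, so it can miss falls of that size. The smallest edgeR adjusted p, 0.167, was that of Ccnb2, at 9.39 CPM against 35.7 in its same-time control. Cdk1 at 9.64 CPM (log2 −1.52 ± 0.32 against the 5 controls, edgeR adjusted p = 0.189) and Tpx2 at 11.9 CPM (−1.17 ± 0.25, 0.190) were likewise below their whole control range. Of the other members, Cdca3 at 4.61, Aspm at 2.43 and Pbk at 4.36 CPM differed most from their same-time control (log2 −1.66, −1.49 and −1.46). By role, 5 of 6 cyclin and Cdk1 genes, all 3 passenger complex genes, 6 of 9 checkpoint and kinetochore genes, 6 of 7 kinesins and 5 of 6 spindle assembly genes lay below every control. So did 3 of 5 mitotic kinases, 2 of 3 anaphase partners, 2 of 3 cytokinesis genes, 1 of 2 transcription factors and 1 of the pair Top2a and Mki67. The 3 members above their control were Bub1 (log2 0.43), Mybl2 (0.34) and Ube2c (0.10). Mybl2, without a fragment at 24 hours, was at 5.79 CPM, within the control range.

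At 4 and 12 weeks most members were above their same-time control. The median log2 difference was 0.30 at 4 weeks and 0.36 at 12 weeks, with 9 of 46 genes lower and 37 higher each time, where 46.8% and 50% of all genes tested were lower. At 4 weeks 18 of 46 lay above all 5 controls, against 19.1% of all genes tested, and at 12 weeks 13 of 46, against 21.9%. In edgeR 0 members were called at either time, where 0.0448% of all genes fell and 0.0128% rose at 4 weeks and 0% did at 12 weeks. By unadjusted p under 0.05, 4 were higher at 4 weeks (4.15% of all genes), namely Nek2, Cdc20, Kif4 and Kif20a. At 12 weeks there were 5 higher (4.95% of all genes), namely Ccna2, Melk, Kif11, Aspm and Anln, and 1 lower, Cenpe (5.73%). DESeq2 called none at either time.

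Among members of at least 50 counts on average, the largest differences at 4 weeks were those of the kinesin Kif4 (16.7 against 7.20 CPM in the same-time control), Kif20b (14.3 against 7.20), Kntc1 (8.90 against 4.68), Plk1 (23.6 against 13.8) and Bub1 (21.6 against 13.3). At 12 weeks they were those of Ttk, Plk1, Aspm, Ndc80 and Mki67. Ttk was at 7.44 CPM against 0.679 in the 12-week control, but the other controls held 1.57, 4.05, 8.93 and 6.49, so the irradiated pool lay within their range. For Plk1 the pair was 15.96 against 4.07 CPM, with the other controls at 11.1, 12.9, 13.8 and 17.0. In both genes the 12-week control was the lowest of the 5, and it was the lowest control for 18 members in all. Aspm at 14.6 CPM and Ndc80 at 22.7 CPM lay above every control, whose highest values were 10.4 and 18.1. Anln reached 38.7 CPM at 12 weeks, above its highest control of 24.4 CPM (edgeR adjusted p = 0.401).

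At 32 weeks 43 of 46 members were again below their same-time control, at a median log2 of −0.66 (63.5% of the control level), where 48.2% of all genes were lower. The control of that time had the highest members' sum of the 5. Set against all 5 controls, 21 of 46 members lay below them, against 23.3% of all genes tested. Above them lay 1 of 46, Nek2, against 25.5%. The edgeR test called 0 members, where 0.25% of all genes fell and 0.576% rose, and 7 were lower at an unadjusted p under 0.05 (6.92% of all genes) and 1, Nek2, higher (9.43%). DESeq2 did call members lower, but its share of all genes at 32 weeks is not given here. The smallest edgeR adjusted p, 0.122, was that of the spindle kinesin Kif15, at 1.55 CPM against 4.95, 8.59, 5.72, 5.18 and 12.2 in controls. Mki67 was at 11.4 CPM against 40.2 in its same-time control, yet within the control range, which starts at 9.76. The same held for Mybl2 (5.26 against 14.6 CPM, lowest control 4.54) and Cenpe (5.96 against 16.1, lowest control 4.24). Cenpf, at 5.19 CPM, was below its lowest control of 8.09 (edgeR adjusted p = 0.206).

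**Figure D3:**
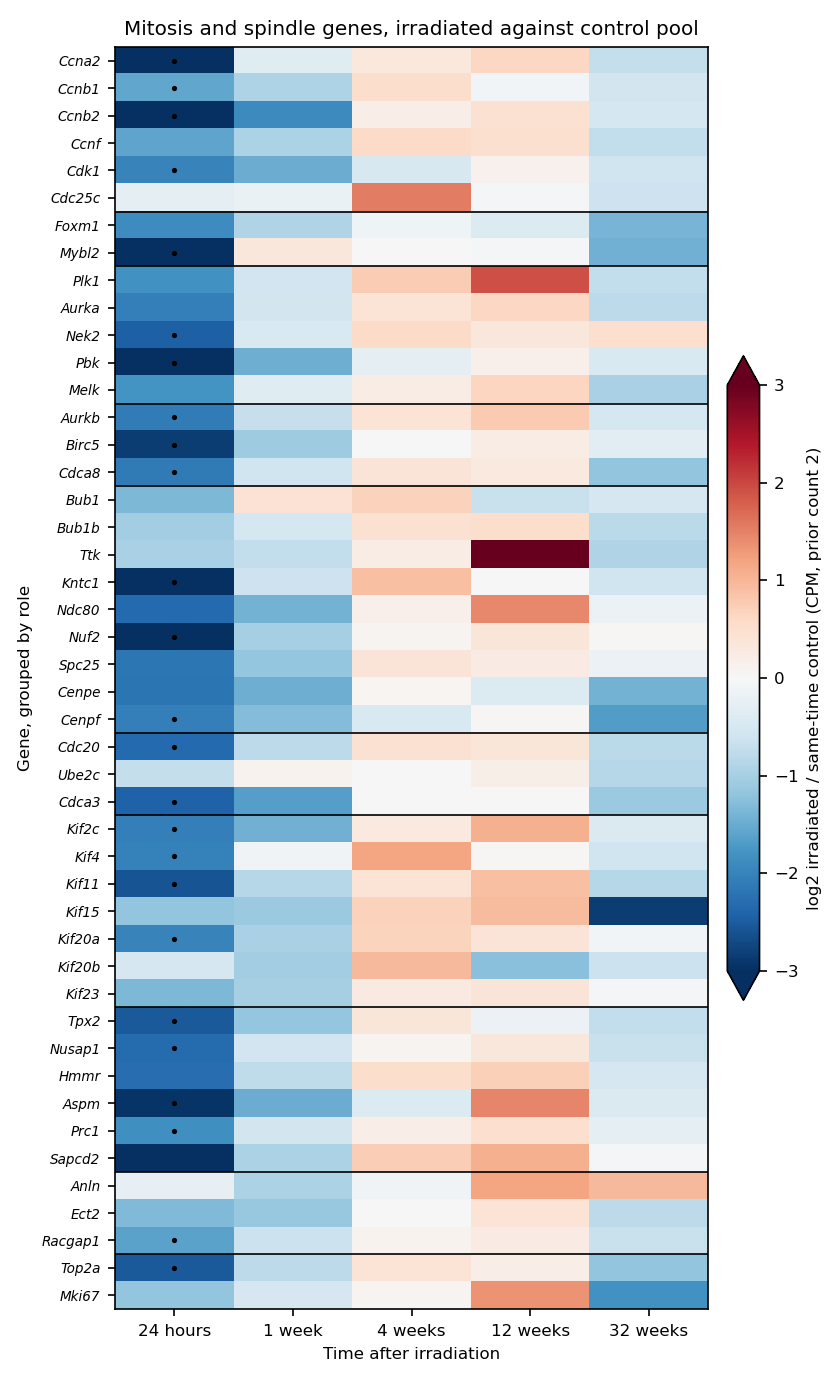
Log2 difference of each irradiated pool from its same-time control (CPM, prior count 2; blue lower, red higher, colours end at 3 either way) for the 46 genes, in rows grouped by role between black lines, at the 5 times in columns; dots mark edgeR adjusted p under 0.05 against the 5 controls. The column of 24 hours is blue in all 46 rows and holds the 25 dots, and 37 rows are above 0 at 4 weeks and 37 at 12 weeks.

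Single members took different courses through the irradiated pools. Ccnb2 was at 3.04, 9.39, 33.7, 32.5 and 19.4 CPM in the irradiated pools in time order, above its highest control at no time and below its lowest at 24 hours, 1 week and 32 weeks. Tpx2 was at 4.09, 11.9, 33.4, 25.5 and 16.7 CPM, above every control at 4 weeks and within them at 12. Racgap1 was at 16.1, 35.2, 59.5, 72.1 and 34.7 CPM, above every control at 12 weeks only. Nusap1, at 4.49, 17.0, 29.9, 30.1 and 14.4 CPM, was above every control at both middle times. All 4 thus lay below every control at 24 hours, 1 week and 32 weeks, and they differed in which of the middle times went above. Kif11 went from 2.80 and 8.47 CPM to 31.2 and 40.4, both above its highest control of 29.6, and was at 16.3 at 32 weeks, inside the control range. Nek2 was at 2.96, 10.5, 29.1, 18.8 and 28.6 CPM, above its highest control of 20.3 at 4 and 32 weeks. Cdk1 was at 7.37, 9.64, 23.3, 22.5 and 18.4 CPM, and never exceeded its highest control of 32.9.

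The number of times at which a gene lay below its control differed between members. Of the 46, 31 were lower in 3 of 5 pairs, 12 in 4, 2 in 2 (Nek2 and Nuf2) and 1, Foxm1, in all 5 pairs, against 5.73% of all genes tested. The lowest of all 10 pools was the irradiated pool of 24 hours for 42 members, and the highest was the irradiated pool of 4 weeks for 13, that of 12 weeks for 12 and the 32-week control for 12. Over all 5 pairs, with time as a block, edgeR called 0 members, where 0% of all genes fell, with a median log2 of −0.51. By unadjusted p under 0.05, 5 of 46 were lower, against 4.47% of all genes. Cenpf came nearest, at an adjusted p of 0.301. DESeq2 called 2 lower, and the share of all genes it called is not given here. In this test over all 5 pairs an effect that differs between times counts as spread.

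A test of whether the difference at 24 hours departs from that at the 4 later times gave the same direction in all 46 members, with a median log2 of −2.02. None passed in edgeR (smallest adjusted p 0.786, Kntc1), where 0.0064% of all genes did. By unadjusted p under 0.05 there were 29 members, against 1.77% of all genes. DESeq2 called 4. In proportion to log2 days, the difference rose in 44 members without any passing in edgeR (median log2 0.24 per doubling of time, smallest adjusted p 0.679, Nuf2). Here 0% of all genes were called higher, and 21 members had an unadjusted p under 0.05 against 3.4% of all genes. DESeq2 called 5 higher, with its share of all genes not given here. That the members' fall at 24 hours differs from the later values was therefore not shown gene by gene in edgeR. On simulated data the test of 24 hours against later times recovered 32% of 4-fold and 86% of 8-fold falls. It can thus miss differences of the members' size.

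**Figure D4:**
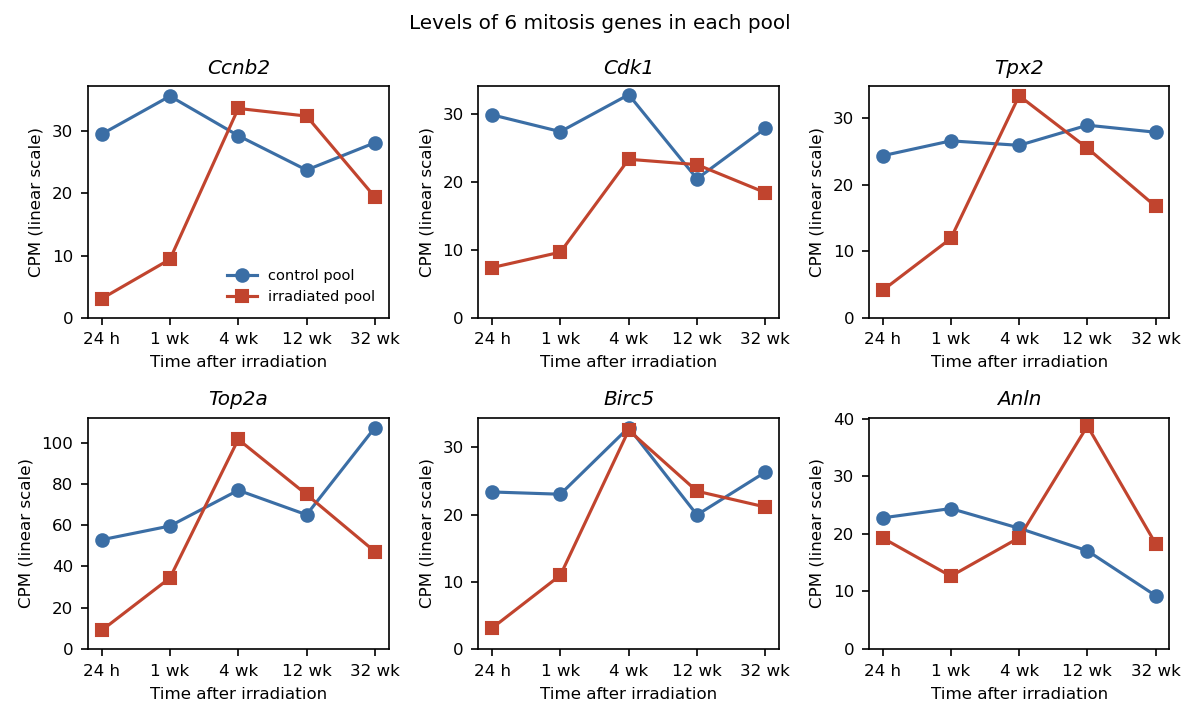
CPM (linear scale from 0) of Ccnb2, Cdk1, Tpx2, Top2a, Birc5 and Anln in each of the 5 control pools (blue circles) and 5 irradiated pools (red squares) by time; each point is 1 pool. In 5 of the panels the irradiated pools of 24 hours and 1 week lie below every control, whereas Anln is within its controls at 24 hours and highest at 12 weeks, at 38.7 CPM.

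Other genes of the division programme, listed with earlier results of these data known, went the same way to differing extents. Of all genes tested, 0.454% fell and 0.602% rose at 24 hours in edgeR, and their median log2 difference was −0.004. Of 48 further mitosis genes, 6 fell at 24 hours in edgeR and 0 rose, at a median log2 of −1.40 against the same-time control. They included Mad2l1, the checkpoint protein Mad2, at 6.41 against 23.7 ± 2.29 CPM (adjusted p = 0.0177), and Cep55 of the midbody, at 1.04 against 9.83 ± 2.23 (0.0229). Of 26 S phase genes, 6 fell (median −1.07), among them the helicase subunit gene Mcm5 (log2 −1.57 ± 0.21, edgeR adjusted p = 0.00792) and the ribonucleotide reductase gene Rrm2 (−2.33 ± 0.33, 0.0104). In the condensin and cohesin list 2 of 13 fell, Smc4 and Ncapg, both condensin subunits (edgeR adjusted p = 0.0334 and 0.0430; median of the list −0.45). The 15 subunits of the anaphase-promoting complex had no call and a median of −0.21, although their partner Cdc20 fell. Their smallest p were those of Anapc15 and Anapc5 (edgeR adjusted p = 0.508 and 0.692).

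The 12 genes of DREAM and the pocket proteins had no call either (median −0.18). Rbl2, the pocket protein p130, was at 114 CPM against 79.7 ± 7.82 (edgeR adjusted p = 0.280), and Lin54, the CHR-binding subunit, at 9.85 against 17.1 ± 2.61 (0.353). Of 8 G1 cyclins and kinases none passed at 24 hours (median −0.09), with Cdk2 at 19.4 against 36.7 ± 3.16 CPM and Ccnd1 at 89.7 against 60.3 ± 13.8 (edgeR adjusted p = 0.115 and 0.425). Among 13 tested Cdk inhibitors and p53 arrest genes 3 rose and 0 fell at 24 hours, where 0.602% of all genes tested rose and 0.454% fell. Cdkn1a was at 517, 275, 186, 110 and 82.8 CPM in irradiated pools in time order, against 74.95, 72.7, 58.9, 48.3 and 68.4 in controls. It rose at 24 hours, 1 week and 4 weeks (edgeR adjusted p = 0.000121, 0.0187 and 0.0497), the only gene of these 7 lists to pass at 1 week or later. Ccng1, cyclin G1, and Zmat3, both p53 targets, rose at 24 hours (edgeR adjusted p = 0.00179 and 0.0405).

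**Figure D5:**
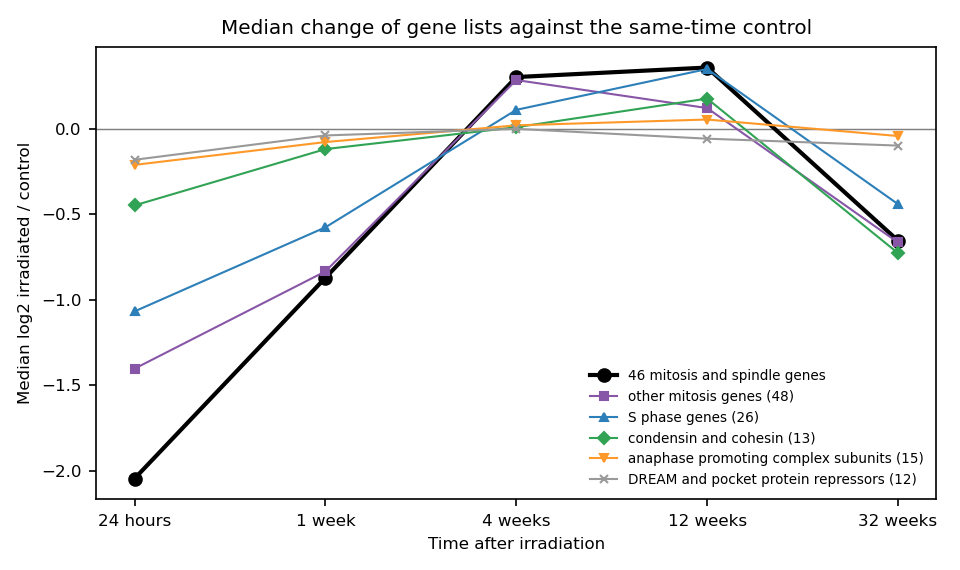
Median log2 difference between irradiated and same-time control pools (CPM, prior count 2) by time for the 46 mitosis and spindle genes and 5 related lists, with the number of genes in brackets; each point is a median over genes from 1 pair of pools, with no error bar. The 46 genes go lowest at 24 hours, to −2.05, while the medians of the anaphase-promoting complex subunits and of the DREAM list stay between −0.21 and 0.05.

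Most markers of thymocytes, T cells and B cells were lower together with the set at 24 hours and 1 week, but did not follow it at every time. The 6 thymocyte markers (Rag1, Rag2, Dntt, Ptcra, Cd8b1 and Themis) are genes expressed in a dividing cell type of the thymus, and not all are confined to it. They summed to 110, 109, 442, 133 and 490 CPM in controls and 25.6, 42.4, 249, 252 and 94.7 in irradiated pools. At 24 hours all 6 were below their same-time control and none passed, and Rag1, Rag2 and Ptcra were at 0 in that pool. No marker was at 0 in all 10 pools. The 8 T cell markers summed to between 462 and 846 CPM in controls and 229, 303, 595, 571 and 411 in irradiated pools, and 2 of 8 fell at 24 hours in edgeR (Cd3d and Cd3g). The 8 B cell markers summed to between 1100 and 1691 CPM in controls and 586, 780, 1246, 1662 and 1179 in irradiated pools, and 3 of 8 fell at 24 hours (Cd79a, Cd79b and Fcrla). Of all genes tested, 0.454% fell at that time. At 4 weeks, when most members were higher, 6 of 6 thymocyte and 7 of 8 T cell markers were below their same-time control (median log2 −0.95 and −0.46). All 8 B cell markers were above it (0.17). At 12 weeks 6 of 6 thymocyte markers were above theirs (1.58), and the T and B cell markers had medians of 0.06 and 0.08. At 32 weeks 6 of 6 thymocyte and 8 of 8 T cell markers were below (−2.38 and −1.02). The B cell markers then had a median of −0.10, while the members were at −0.66. The part of these cells in the members' changes was not tested.

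The suspensions held lung cells throughout. The 7 alveolar type 2 cell markers summed to between 23120 and 41175 CPM in controls and to 56226, 57616, 41850, 7113 and 8357 in irradiated pools in time order. At 24 hours all 7 were above their same-time control and 2 rose in edgeR (Abca3 and Etv5), while at 12 and 32 weeks their sum lay below every control. The 8 monocyte and interstitial macrophage markers summed to 2614 CPM at 24 hours, above the highest control of 1819, and 3 rose (C1qb, C1qc and Ms4a7). Of all genes tested, 0.602% rose at 24 hours. The part of these shifts in the members' values was not tested. The 8 erythroid precursor markers, of another dividing lineage, summed to 732 CPM at 24 hours against 572 in the same-time control. This lay within the control range of 116 to 1075 CPM, and of 5 tested markers 2 were below the same-time control and 3 above. The 5 germinal centre B cell markers summed to 52.0 CPM at 24 hours against 73.8, with all 3 tested markers lower. At 1 week 1 of these 3 was lower and 2 were higher. Myeloid precursor markers were between 2.29 and 4.65 CPM in all pools.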

How the data were processed

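RNA sequencing of 10 pooled libraries was analysed. Per the labels' protocols, RNA was extracted with Qiagen RNeasy PLUS and made into libraries with Clontech ultralow and Illumina NexteraXT kits. The submitters' processing notes name build GRCm38.p4 and the tools STAR 2.4.2a, Trimmomatic 0.32, Cuffdiff and Cufflinks 2.0.2. Neither the steps of each tool nor the annotation is given in the sources used here. Both tables used, expected (estimated) counts and FPKM, are as deposited by the authors. In each library 77.9% to 79.9% of the low expected counts as deposited lay within 0.05 of a whole multiple of a step of 0.576 to 1.38. The step differed between libraries, and dividing by it gave 8679551 to 17473034 fragments. Columns that belonged to no sample numbered 0. GENCODE M21 gave symbols for 45223 gene identifiers, and the other 563 held at most 0.135% of a library.

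Rounded to whole numbers, the expected counts were scaled by TMM (factors 0.933 to 1.09). Genes passing filterByExpr (minimum count 10, treatment as the group) were tested with edgeR 4.0.16's robust quasi-likelihood F test in R 4.3.3, 2-sided, with Benjamini-Hochberg adjustment over all 15625 genes and a threshold of 0.05. Each time set 1 irradiated pool against the 5 controls. The test over 5 times had time as a block, since the labels pair each irradiated pool with an age-matched control. Same-time log2 differences use a prior count of 2 and have no test. The p-values rest on the spread between pools, in which biological and technical spread are not separated. DESeq2 1.42.0, limma 3.58.1 on FPKM, other scalings and filters and leaving out pools were alternatives, and the edgeR steps were tested on simulated data.

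The members, lists and tests were chosen with earlier results of these data known. At each time the 5 members of at least 50 mean counts with the largest same-time difference, the members at 0 and the 3 of highest FPKM were to be named, and of each list the 2 genes of smallest p and Cdkn1a. Other members were described by role.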

Additional observations from a re-analysis of the deposited data

Results flagged for a closer look

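Within 1 treatment, 6 of 94 groups of 5 pools had a member whose highest or lowest pool stood apart from the other 4 by Dixon's 95% criterion; chance gives about 1 in 20. In controls, Ccnf was lowest at 4 weeks, at 12.5 CPM. Pbk was highest in that same pool, at 18.8 CPM. Mybl2 and Bub1b were highest in the 32-week control, at 14.6 and 64.7 CPM. Kif20b was highest in the 12-week control, at 19.9 CPM. Among irradiated pools, Anln stood apart at 12 weeks, at 38.7 CPM.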

How the results depend on the processing

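Alternatives were run for the members' counts, the members' medians and the 25 called members, and none of these changed direction. They were not run for the other gene and marker lists. The number of members that fell at 24 hours was 25 in edgeR, where 0.454% of all genes tested fell. It was 38 with DESeq2 (2.3% of all genes), 14 with limma on log2(FPKM + 1) (0.243%) and 21 with limma on log2(FPKM + 0.1) (0.429%). With total counts it was 21 (0.435%), with DESeq2's size factors 25 (0.461%), without a filter 29 (0.425%) and on recovered fragments 25 (0.441%). With 1 control left out it was 14 to 24 (0.154% to 0.442%), lowest without the 1-week control. Leaving out the 4-week and 32-week controls, chosen after seeing the data, gave 17 (0.358%). DESeq2 called 9 lower at 1 week, 2 at 32 weeks, 2 over the 5 times, 4 in the test of 24 hours against later times and 5 higher with log2 days, where edgeR called 0. The shares of all genes that DESeq2 called in these tests are not given here. At 32 weeks the median was −0.32 with log2(FPKM + 0.1), where the median over all genes was 0.32. On that scale the all-gene median also shifted at 4 and 12 weeks, to 0.22 and 0.14, with the members at 0.48 and 0.52, and with total counts it was −0.15 at 32 weeks, with the members at −0.83. Pairing by time comes from the labels; without the replicate block the test over the 5 times also called 0 members. The test of 24 hours against later times could not be fitted without the pools of 24 hours. Fragments were fewest for Cdc25c and Sapcd2, and depth limits the folds of Mybl2, Sapcd2 and Kntc1 at 24 hours.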

Other observations

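Among the members with a matched promoter, the CHR was in 14 of the 20 that fell at 24 hours (70%) and in 15 of the 19 others (78.9%), and a CCAAT box in 15 (75%) and 13 (68.4%). These shares were compared after the values were seen and were not tested. Anln has 2 CHR matches and no CCAAT box in its window, whereas Birc5, Mybl2, Nuf2 and Nusap1, which fell, and Melk and Sapcd2, which did not pass, have neither motif there.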
